A study of Mus musculus with 11 samples.

Results

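Blood vessels and lymphatic vessels are both lined by endothelial cells, and the 31 genes described here are established markers of those cells. They were chosen by symbol, without reference to the measured values, although earlier results of these data were known. Of the 31, 30 had a row in the table of 22243 genes and 11 passed the filter on low values, which kept 10756 genes that reached 1 TPM in 5 or more mice. TPM is transcript abundance per transcript length and library total. Erg had no row and was not analysed here.

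RNA was measured in full-thickness distal colon of 11 adult mice. Of these, 6 were wild type (WT) and 5 were Nrg4-/- (KO), lacking the growth factor neuregulin-4, which signals through the receptor ErbB4. Animals of both genotypes shared cages from 9 weeks of age and were taken at 11 to 12 weeks, and both sexes were used, per the labels. Cage A held WT-5, WT-7, KO-1 and KO-8, cage B held WT-2, WT-11, KO-4 and KO-9, and cage C held WT-6, WT-10 and KO-3. The labels do not give a strain, nor how the Nrg4 allele was made. They name separate mice, so each value below is 1 animal.

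Endothelial cells meet at junctions built from VE-cadherin (Cdh5), PECAM-1 (Pecam1), claudin-5 (Cldn5) and ESAM (Esam). Their growth and survival are steered by VEGF receptors (Flt1, Kdr and Flt4) and by the angiopoietin receptor TIE2 (Tek) with its partner TIE1 (Tie1). Blood capillaries of the intestine carry diaphragms made of PLVAP (Plvap), whereas lymphatic vessels are specified by the transcription factor PROX1 (Prox1) and display LYVE-1 (Lyve1), podoplanin (Pdpn) and VEGFR-3 (Flt4). The members were therefore read in 3 groups: 10 blood-leaning genes, 16 genes that both vessel types make, of which 15 had a row, and 5 lymphatic genes.

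In each library the endothelial genes were minor transcripts. The 10 blood-leaning genes summed to 5.64 to 15.5 TPM in WT and 8.14 to 16.6 TPM in KO mice, and the 5 lymphatic genes to 2.71 to 10.6 and 4.03 to 10.5 TPM. Over the same mice 10 epithelial genes summed to 16750 to 25003 TPM. In bulk tissue, fewer endothelial cells and less RNA per endothelial cell cannot be told apart. The summed TPM of all listed transcripts ran from 558446 to 770986, and mitochondrially encoded genes took 19.0% (KO-1) to 42.9% (KO-3) of it. Nrg4 itself (chromosome 9, 55220222 to 55326844, minus strand, GRCm38) was listed at 0 in all 11 mice, so it could not check the labels. The Y-linked gene Eif2s3y was at 21.5 to 31.8 TPM in all 4 animals of cage A and no higher than 0.0523 TPM in the others, so cage A and male sex cannot be told apart.

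The promoters of 4 members are shown because these genes mark the patterns described below: Emcn separated the genotypes, Cldn5 and Flt1 followed Cdh5 from mouse to mouse, and Clec14a did not. Each is the stretch before the transcription start, from RefSeq (GRCm38.p6), written 5′ to 3′ on the gene's strand, with matches to the searched motifs in capitals.
Emcn, chr3:137340828-137341066, plus strand: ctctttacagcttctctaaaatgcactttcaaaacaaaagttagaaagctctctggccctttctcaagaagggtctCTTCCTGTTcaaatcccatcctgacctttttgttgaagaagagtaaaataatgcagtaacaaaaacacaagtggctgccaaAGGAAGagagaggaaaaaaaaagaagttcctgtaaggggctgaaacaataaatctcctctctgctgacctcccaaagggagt
Cldn5, chr16:18776597-18776846, plus strand: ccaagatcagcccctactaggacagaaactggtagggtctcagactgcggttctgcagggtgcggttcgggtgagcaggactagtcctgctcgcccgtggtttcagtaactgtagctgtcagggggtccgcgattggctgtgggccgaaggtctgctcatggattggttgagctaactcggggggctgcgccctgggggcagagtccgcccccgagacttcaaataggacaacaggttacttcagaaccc
Flt1, chr5:147726012-147726261, minus strand: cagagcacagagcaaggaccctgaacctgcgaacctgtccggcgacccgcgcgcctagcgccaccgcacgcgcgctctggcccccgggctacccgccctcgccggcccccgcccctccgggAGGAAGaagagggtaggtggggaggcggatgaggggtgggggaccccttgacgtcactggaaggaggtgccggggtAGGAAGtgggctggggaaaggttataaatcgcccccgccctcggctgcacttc
Clec14a, chr12:58269291-58269508, minus strand: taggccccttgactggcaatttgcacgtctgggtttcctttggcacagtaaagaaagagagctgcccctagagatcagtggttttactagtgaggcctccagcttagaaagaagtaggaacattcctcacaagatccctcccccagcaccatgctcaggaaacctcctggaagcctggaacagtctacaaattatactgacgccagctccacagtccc

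RefSeq promoter windows matched 16 of the 31 members, with 21 windows in all. The search, over 250 bases before each start and on both strands, used 3 motifs: AGGAAG, a site form of ETS factors such as ERG; AACAGGAA, a joint FOX and ETS form that can overlap an AGGAAG match; and ACAATG, a SOX form. AGGAAG stood in the windows of 8 of 16 members (Cd34, Egfl7, Emcn, Eng, Erg, Flt1, Robo4 and Tie1), or 9 of 21 windows, and in 29.5% of all 32851 windows. AACAGGAA stood in those of Egfl7 and Emcn and in 2.25% of all windows, and ACAATG in those of Erg and Mmrn1 and in 10.7%. In the Emcn promoter above, the capitals hold 2 AGGAAG matches, and the upstream stretch of capitals joins an AGGAAG and an AACAGGAA match that overlap, both on the other strand. The Flt1 promoter holds 2 AGGAAG matches, and the Cldn5 and Clec14a promoters hold none of the 3 motifs. These are matches of letters and not measured binding.

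The question of the comparison was which endothelial genes differed between KO and WT colon. None of the 11 tested members passed limma's moderated test at an adjusted p of 0.05, with cage as a term, where 0.0372% of all genes tested (4 of 10756) passed. At an unadjusted p below 0.05 the count was 1 of 11, Emcn, against 3.10% of all genes tested. Without the filter, the fit covered 18070 genes and 30 members, of which 0 passed (background 0.0111%) and 1 had an unadjusted p below 0.05 (background 3.43%). In that fit 21 of 30 members had a higher estimate in KO, against 48.1% of all genes, and the median log2 difference was 0.09 over the members and -0.0042 over all genes. By group, 8 of 10 blood-leaning, 9 of 15 shared and 4 of 5 lymphatic members had the higher estimate in KO, with median log2 differences of 0.10, 0.08 and 0.14. Many members varied together over the mice (median Pearson's r of 0.55 with Cdh5, below), so these counts are not of separate results. They also include members near 0, such as Robo4, listed at 0 in 10 mice.

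**Figure D1:**
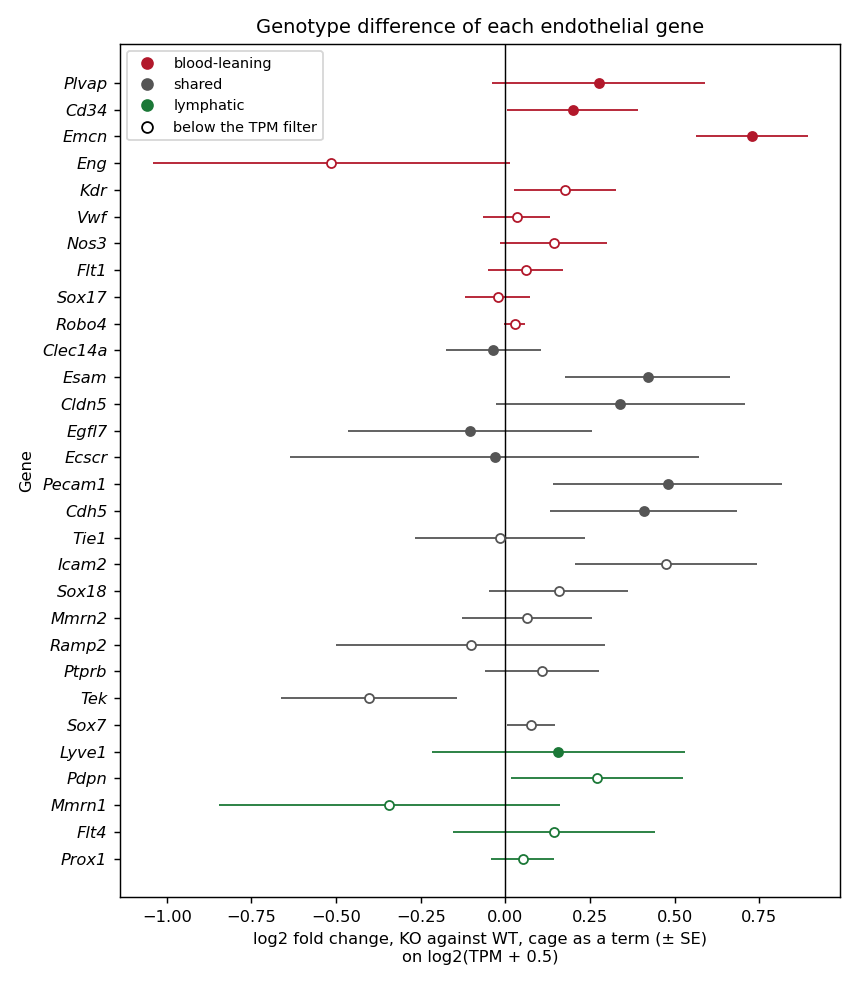
Log2 fold change of each of the 30 measured members, KO over WT, from log2(TPM + 0.5) with cage as a term (x axis), with bars of 1 SE, by gene (y axis) and coloured by group. Emcn, at 0.73, lies farthest to the right, and the other 29 lie within 2 SE of 0.

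Emcn encodes endomucin, a sialomucin on the surface of venous and capillary endothelium (chromosome 3, 137341067 to 137432185, plus strand). Its level was 2.62, 1.86, 2.38, 2.63 and 3.06 TPM in KO-1, KO-3, KO-4, KO-8 and KO-9. In WT mice it ran from 0.766 (WT-6) through a median of 1.12 to 1.81 TPM (WT-2). Every KO mouse was above every WT mouse, which held for 1 of the 11 tested members and for 0.112% of all genes tested, and the gap between KO-3 and WT-2 was small. The means were 2.51 ± 0.438 TPM in KO (SD, n = 5) and 1.28 ± 0.430 TPM in WT (SD, n = 6). The log2 difference was 0.73 ± 0.17 (SE), with an unadjusted p of 0.00177 and an adjusted p of 0.9999 by limma. The difference between the genotypes was alike in the 3 cages, at 0.74 in A, 0.71 in B and 0.74 in C, where cage C held a single KO mouse.

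Set against the other endothelial genes of the same mouse, Emcn was still higher in KO. Its log2 level was taken minus the mean of 7 other tested blood-leaning and shared members: Cdh5, Esam, Cldn5, Plvap, Egfl7, Clec14a and Cd34. Pecam1 and Ecscr, each listed at 0 in some mice, were left out. The result averaged -0.05 ± 0.20 in KO mice (SD, n = 5, from -0.29 to 0.24). In WT mice it averaged -0.56 ± 0.20 (SD, n = 6; -0.77 to -0.26), so that the genotypes overlapped only where KO-1 (-0.29) was below WT-7 (-0.26). The difference with cage as a term was 0.51 ± 0.13 (SE), given without a test because the other members were chosen with these data known. Emcn was also picked for the smallest genotype p of the members, so an excess over the others was partly built in. The authors' deposited table listed Emcn at a p of 0.0722 and a q of 1, and listed no member at a q below 1. It gave no p or q for Tek, Eng, Sox7, Sox17, Robo4, Ramp2 and Egfl7. From the mean natural log count in the authors' deposited table, the Emcn transcript had about 21.5 estimated reads per library, for which counting alone gives an error of 21.6%.

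**Figure D2:**
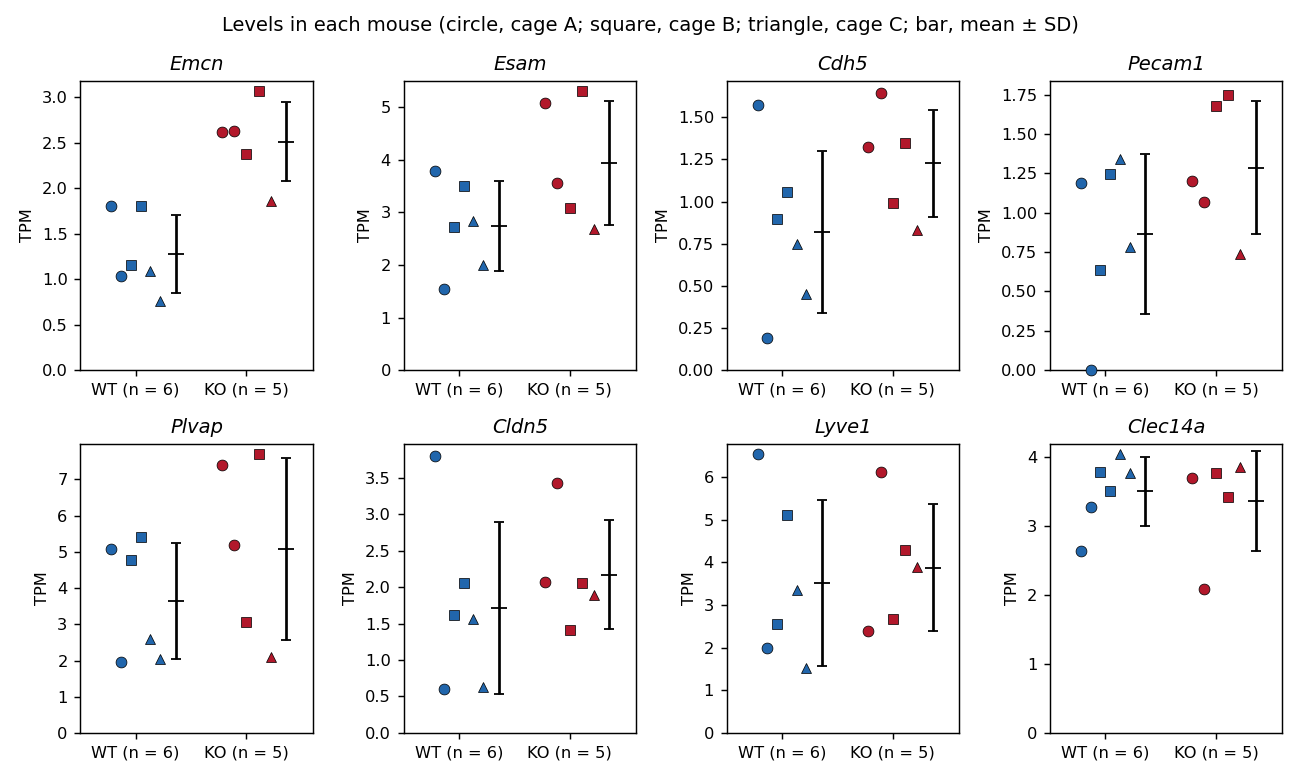
TPM (y axis, from 0) of 8 members in each WT (n = 6) and KO mouse (n = 5), with the shape of a point giving the cage and bars giving the mean and SD. The KO mice of Emcn sit between 1.86 and 3.06 TPM, above all WT mice, and the genotypes overlap for the other 7 genes.

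Among the junction genes, the estimates were higher in KO but the mice of the genotypes overlapped. Cdh5, the adherens junction cadherin of all endothelium (chromosome 8, 104101625 to 104144511, plus strand), was at 1.32, 0.834, 0.993, 1.64 and 1.35 TPM in KO-1, KO-3, KO-4, KO-8 and KO-9, and in WT mice from 0.193 (WT-7) through a median of 0.822 to 1.57 TPM (WT-5). WT-7, WT-6 (0.449 TPM) and WT-10 (0.747 TPM) were below every KO mouse, while WT-5 was above all KO mice but KO-8. The log2 difference was 0.41 ± 0.28 (SE; limma adjusted p = 0.9999). Pecam1, a homophilic adhesion receptor of endothelium and platelets (chromosome 11, 106654217 to 106750628, minus strand), was at 1.20, 0.740, 1.68, 1.07 and 1.75 TPM in the same order of KO mice, against 0 (WT-7) to 1.34 TPM (WT-10) with a median of 0.986 TPM in WT. KO-9 and KO-4 were the highest mice and WT-7 was listed at 0, although Cdh5, Esam and Plvap were above 0 in it. The log2 difference was 0.48 ± 0.34 (SE), and by cage it was 0.83, 0.65 and -0.31 in A, B and C.

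Esam, a tight junction adhesion molecule of endothelium and platelets (chromosome 9, 37528078 to 37538319, plus strand), was at 5.07, 2.68, 3.09, 3.55 and 5.30 TPM in KO-1, KO-3, KO-4, KO-8 and KO-9. In WT mice it ran from 1.54 (WT-7) through a median of 2.78 to 3.79 TPM (WT-5). KO-1 and KO-9 stood above all WT mice, and the other 3 KO mice lay within the WT range. The log2 difference was 0.42 ± 0.23 (SE; limma adjusted p = 0.9999), and by cage 0.68, 0.34 and 0.14 in A, B and C. Esam lies 17.7 Mb from Nrg4 on the same chromosome, which also holds the 4 genes that passed the test in the whole table, and the part of linkage in its difference was not tested. Cldn5, the main claudin of endothelial tight junctions (chromosome 16, 18776847 to 18778262, plus strand), was at 2.06, 1.89, 1.41, 3.42 and 2.06 TPM in KO mice and from 0.603 (WT-7) through 1.59 to 3.80 TPM (WT-5) in WT. WT-7 and WT-6 (0.632 TPM) lay below the KO range, WT-5 above it and the other 3 WT mice within it, and the log2 difference was 0.34 ± 0.35 (SE).

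These estimates leaned on WT-7. Without it the log2 difference was 0.23 for Esam, 0.14 for Cdh5, 0.18 for Pecam1, 0.03 for Cldn5 and 0.02 for Plvap, and that of Emcn was 0.64. Other single mice also moved them: Pecam1 was at 0.74 without KO-3, Cldn5 at 0.59 without WT-5 and 0.22 without KO-8, and Plvap at 0.12, 0.49 and 0.15 without KO-1, KO-4 and KO-9. Without WT-6 and WT-7 together, an alternative chosen after seeing the data, Cldn5 stood at -0.12 and Cdh5 at 0.08. Icam2, an endothelial ligand of leukocyte integrins that did not pass the filter, ran from 0.115 TPM in WT-6 to 2.14 TPM in KO-1, with a log2 difference of 0.47 ± 0.27 (SE).

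Of the 11 tested members, the surface glycoproteins Clec14a and Cd34 varied least between mice by the ratio of highest to lowest. Cd34, a sialomucin of capillary endothelium that some fibroblasts also make (chromosome 1, 194938819 to 194961279, plus strand), was at 4.06, 3.20, 1.82, 3.80 and 4.26 TPM in KO mice and from 2.15 (WT-6) through 2.60 to 4.10 TPM (WT-5) in WT. KO-4 was the lowest mouse and KO-9 the highest, and the log2 difference was 0.20 ± 0.19 (SE). It was 0.06 without KO-9 and 0.36 without KO-4, the latter at an unadjusted limma p of 0.0436. Clec14a, a lectin-like receptor that binds multimerin-2 (chromosome 12, 58264720 to 58269290, minus strand), was at 3.69, 3.85, 3.76, 2.09 and 3.41 TPM in KO mice and from 2.64 (WT-5) through 3.64 to 4.04 TPM (WT-10) in WT. KO-8 and WT-5, the highest mice for Cdh5, Cldn5 and Lyve1, were its lowest mice, and the log2 difference was -0.04 ± 0.14 (SE). The highest mouse was 1.93 times the lowest for Clec14a and 2.34 times for Cd34, against 8.51 times for Cdh5 and 3.44 times for Esam. Ecscr, a regulator of endothelial migration, was at 0, 0, 1.45, 2.52 and 1.77 TPM in KO mice, and was listed at 0 in 3 WT mice with 3.11 TPM in WT-7. All 3 mice of cage C were listed at 0, and the authors' deposited table gives a mean of about 3.67 estimated reads for its transcript.

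For Plvap and Egfl7 the mean level was lowest in cage C. Plvap, the protein of the diaphragms of fenestrated capillaries (chromosome 8, 71497765 to 71511752, minus strand), was the most abundant member, at 7.39, 2.09, 3.07, 5.19 and 7.70 TPM in KO-1, KO-3, KO-4, KO-8 and KO-9, and from 1.95 (WT-7) through 3.69 to 5.41 TPM (WT-2) in WT. All 3 mice of cage C were at the low end (2.24 ± 0.298 TPM, SD, n = 3) beside 4.90 ± 2.24 TPM in A and 5.24 ± 1.92 TPM in B (n = 4 each). Its genotype difference was 0.28 ± 0.30 (log2, SE), or 0.86, -0.05 and -0.11 by cage. Egfl7, a matrix protein that guides vessel tubes (chromosome 2, 26580014 to 26593120, plus strand), was at 2.55, 0.638, 0.954, 2.63 and 1.05 TPM in KO mice and from 0.188 (WT-6) through 1.55 to 3.11 TPM (WT-5) in WT. Its 3 mice of cage C averaged 0.767 ± 0.653 TPM and those of cage A 2.31 ± 0.945 TPM, and the genotype difference was -0.11 ± 0.35 (log2, SE). Multimerin-2 (Mmrn2) ran from 0.310 TPM in KO-3 to 1.21 TPM in WT-5, and von Willebrand factor (Vwf), which tethers platelets, from 0.243 to 0.514 TPM, both below the filter.

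The receptors were scarce. Kdr (VEGFR-2, the main signalling receptor for VEGF-A) ran from 0.128 TPM in WT-7 to 0.654 TPM in WT-5, and Flt1 (VEGFR-1, which binds VEGF-A as a decoy) from 0.0547 TPM in WT-7 to 0.330 TPM in KO-8. Their log2 differences without the filter were 0.18 ± 0.15 and 0.06 ± 0.11 (SE). Tie1 ran from 0.271 TPM in WT-7 to 1.64 TPM in WT-5, while Tek was under 0.01 TPM in 6 of 11 mice and reached 0.703 TPM in KO-8. The estimate for Tek was -0.40 ± 0.26 and for Tie1 -0.02 ± 0.25 (log2, SE), and that of Ptprb, the phosphatase that restrains TIE2, was 0.11 ± 0.17. Eng (endoglin, a coreceptor of TGF-beta and BMP ligands) was under 0.01 TPM in 8 mice and at 2.76 TPM in WT-5, with 1 of its 6 annotated transcripts in the table. Robo4, a guidance receptor of endothelium that lies 17.8 Mb from Nrg4, was listed at 0 in 10 mice, and Ramp2, the partner of the adrenomedullin receptor, was under 0.01 TPM in 3. Nos3, the endothelial nitric oxide synthase, was listed at 0 in WT-6 and WT-11 and at most at 0.345 TPM elsewhere.

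The SoxF transcription factors, which drive arterial and lymphatic programmes, were all below the filter. Sox18 was the most abundant of them, from 0.261 TPM in KO-8 to 1.25 TPM in KO-9, with a log2 difference of 0.16 ± 0.21 (SE). Sox7 did not go above 0.193 TPM (KO-4) and Sox17 was under 0.01 TPM in 4 mice, with differences of 0.08 ± 0.07 and -0.02 ± 0.10.

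The 5 lymphatic members did not separate the genotypes. Lyve1, a hyaluronan receptor of lymphatic capillaries that some macrophages also carry (chromosome 7, 110850607 to 110863239, minus strand), was at 2.39, 3.90, 2.67, 6.12 and 4.30 TPM in KO-1, KO-3, KO-4, KO-8 and KO-9, and from 1.52 (WT-6) through 2.96 to 6.53 TPM (WT-5) in WT. WT-5 and KO-8 of cage A and WT-2 of cage B were the high mice, so both genotypes spanned the range, and the log2 difference was 0.16 ± 0.35 (SE; limma adjusted p = 0.9999). Flt4, the receptor for VEGF-C, was at 0.290, 0.712, 0.439, 1.47 and 0.706 TPM in KO mice and from 0.225 (WT-6) through 0.531 to 1.20 TPM (WT-5) in WT. Its highest mice were again KO-8 and WT-5, and the difference was 0.14 ± 0.30 without the filter.

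Pdpn, a mucin-type ligand of platelet CLEC-2 that stromal cells also make, was at 0.930, 1.56, 0.635, 1.58 and 0.967 TPM in KO mice, against 0.519 (WT-10) to 1.60 TPM (WT-5) with a median of 0.647 TPM in WT. The 3 mice above 1.50 TPM were WT-5, KO-8 and KO-3, and the log2 difference was 0.27 ± 0.25 (SE). Prox1, the regulator of lymphatic identity, was at 0.206, 0.354, 0.289, 0.269 and 0.297 TPM in KO mice and from 0.166 (WT-7) through 0.231 to 0.443 TPM (WT-2) in WT. Its range was narrow and the KO mice lay inside it. Mmrn1 (multimerin-1, stored in lymphatic endothelium and platelets) was at 0.508, 0.321, 0, 1.03 and 0.695 TPM in KO mice and from 0.0131 (WT-7) through 0.786 to 2.16 TPM (WT-2) in WT, with differences of -0.34 ± 0.50 for Mmrn1 and 0.05 ± 0.09 for Prox1.

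**Figure D3:**
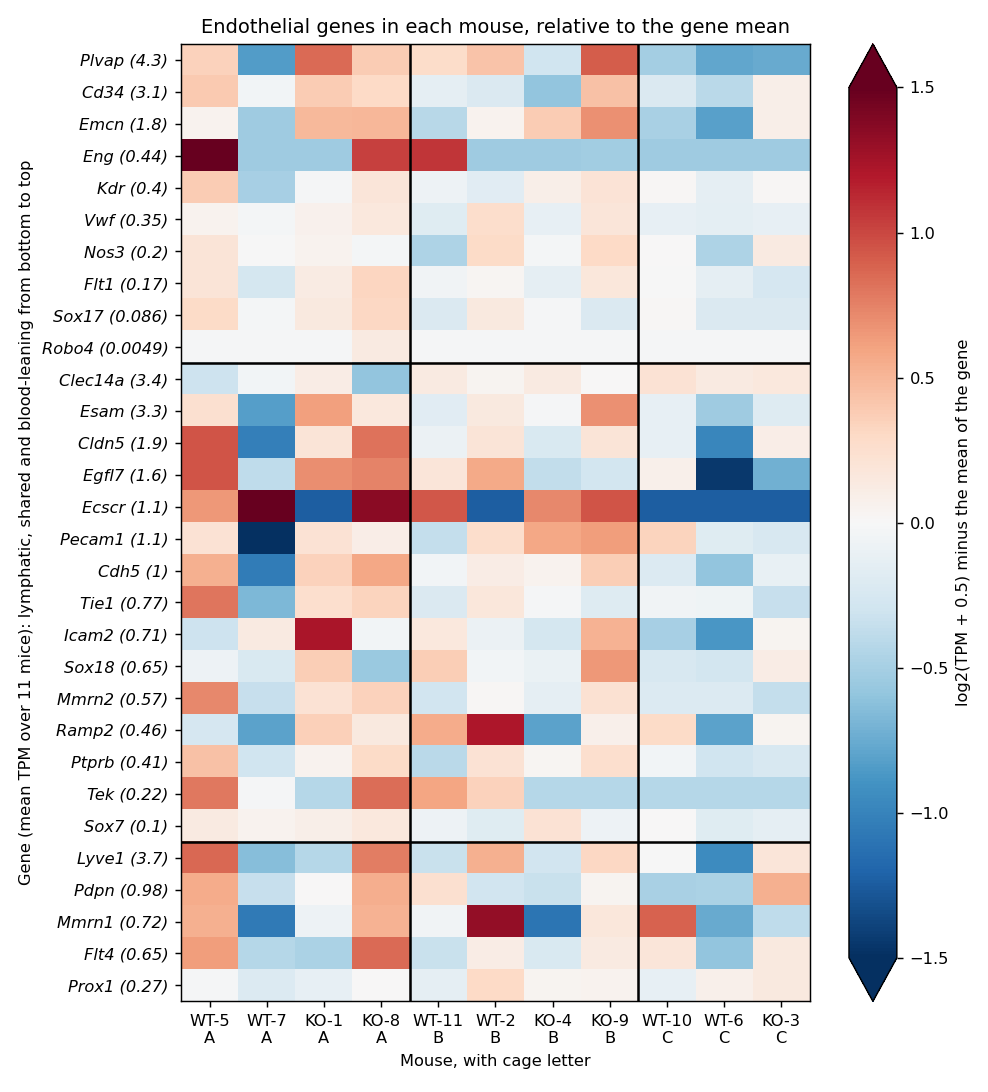
Log2(TPM + 0.5) of each measured member relative to its mean over the 11 mice (colour), by gene (rows, with the mean TPM) and mouse (columns, ordered by cage). Of the 21 members at 0.01 TPM or more in every mouse, WT-5 is the highest mouse for 8 and WT-7 the lowest for 8, within the same cage.

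Blood-leaning and lymphatic genes were then set against each other in every mouse. The mean log2(TPM + 0.5) of the 10 blood-leaning genes minus that of the 5 lymphatic genes was 0.04 in KO-1, -0.62 in KO-3, -0.08 in KO-4, -0.54 in KO-8 and -0.26 in KO-9. In WT mice it ran from -0.70 (WT-2) through a median of -0.33 to -0.08 (WT-7). The values of the 2 genotypes covered nearly the same span, with means of -0.29 ± 0.29 in KO (SD, n = 5) and -0.37 ± 0.25 in WT (SD, n = 6). With cage as a term, KO minus WT was 0.05 ± 0.18 (SE), given without a test because the members were chosen with these data known. The blood-leaning mean includes Eng and Robo4, which were under 0.01 TPM in 8 and 10 mice. With only the members at 0.01 TPM or more in every mouse, KO minus WT was 0.09 ± 0.18 (SE). As a ratio of summed TPM, blood over lymphatic genes was 2.12 ± 0.947 in KO and 1.70 ± 0.469 in WT, from 1.16 in WT-10 to 3.57 in KO-1. KO-1 combined 7.39 TPM of Plvap with 2.39 TPM of Lyve1, whereas KO-3 had 2.09 and 3.90 TPM.

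**Figure D4:**
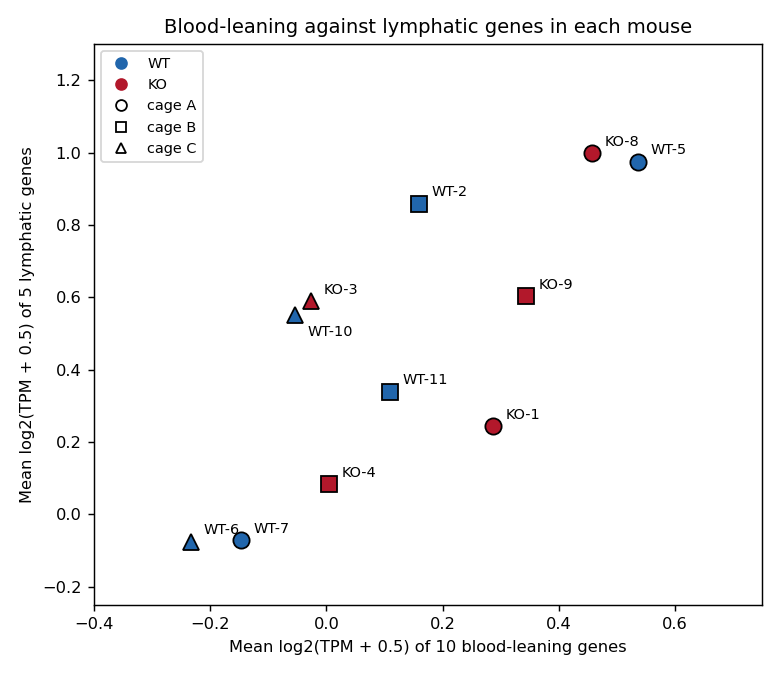
Mean log2(TPM + 0.5) of the 10 blood-leaning genes (x axis) against that of the 5 lymphatic genes (y axis), 1 point per mouse, with colour for genotype and shape for cage. WT-6 and WT-7 lie at the lower left and WT-5 and KO-8 at the upper right, and the genotypes overlap on both axes. The blood-leaning mean includes Eng, at 2.76 TPM in WT-5, 0.983 TPM in KO-8 and under 0.01 TPM in 8 mice. By summed TPM of the blood-leaning genes, KO-9 (16.6) was above WT-5 (15.5).

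The larger differences lay between individual mice. Over the 21 members at 0.01 TPM or more in every mouse, WT-7 was the lowest mouse for 8 (Esam, Prox1, Flt1, Cdh5, Tie1, Plvap, Cldn5 and Kdr), where it was the lowest for 7.38% of 10176 filtered genes. WT-6 was the lowest for 5 (Icam2, Flt4, Egfl7, Lyve1 and Emcn; background 4.66%). WT-5 was the highest for 8 (Ptprb, Egfl7, Pdpn, Lyve1, Tie1, Cldn5, Mmrn2 and Kdr; background 14.8%). KO-9 was the highest for 5 (Esam, Cd34, Plvap, Sox18 and Emcn; background 8.51%), and KO-8 for 3 (background 12.5%). WT-5 and WT-7 shared genotype and cage, so neither label separates the highest from the lowest mouse.

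Stromal marker sums were low in WT-7 and WT-6 and high in WT-5, but other mice did not all follow the endothelial genes. The summed TPM of 12 fibroblast genes was lowest in WT-6 (107) and WT-7 (110.2), with KO-3 beside them (110.3), and highest in WT-5 (216). The 14 vessel basement membrane genes ran from 95.2 TPM in WT-7 to 239 TPM in WT-5. For these genes KO-1 was at 158 TPM, with 15.4 TPM of blood-leaning genes, and WT-10 at 183 TPM, with 7.30 TPM. The 10 measured smooth muscle genes were at 3272 TPM in WT-7, 3355 TPM in WT-6 and 6092 TPM in WT-5, although KO-3 was lower still at 3157 TPM. WT-11 was also low, at 3420 TPM, with 10.4 TPM of blood-leaning genes. Epithelial genes were at 20735 TPM in WT-7 and 18426 TPM in WT-5, within a range from 16750 TPM (WT-2) to 25003 TPM (WT-10). The part of tissue composition in the endothelial differences was not tested.

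How closely the members moved together was measured against Cdh5, by Pearson's r of log2(TPM + 0.5) over the 11 mice, with permutation p-values adjusted over 10774 genes. The permutations shuffled mice over both genotypes and all cages. Genotype was not removed from the levels, so a genotype difference shared with Cdh5 can enter r. Of 29 members, 11 had r above 0.7, against 2.84% of all genes. The median r was 0.55 over the members and -0.01 over all tested genes, and 28 of 29 were positive. No gene of the table passed the adjusted threshold, and 14 members had an unadjusted permutation p below 0.05, against 9.10% of all genes. Cldn5 was closest, with r = 0.93 (permutation p = 7e-05, adjusted p = 0.108) and Spearman's rho = 0.92 (permutation p = 0.00022, adjusted p = 0.129). Esam followed with r = 0.88 (permutation p = 0.00032, adjusted p = 0.113) and rho = 0.89 (permutation p = 0.00054, adjusted p = 0.129), and then Kdr (0.85), Flt1 (0.84), Plvap (0.80) and Emcn (0.79).

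WT-7 and WT-6 were the mice farthest from the median of Cdh5. Without them r was 0.85 for Cldn5, 0.69 for Esam, 0.64 for Kdr, 0.86 for Flt1, 0.71 for Plvap and 0.68 for Emcn. For Pecam1 it went from 0.76 to 0.26, and for Mmrn1 from 0.55 to 0.15, so these relations rest on those 2 mice. Clec14a was the only member with a negative r over 11 mice, at -0.46 (permutation p = 0.144; rho = -0.61, permutation p = 0.0514), and was at -0.84 without them. Ecscr, at 0.06, and Sox18, at 0.25, also followed Cdh5 little over 11 mice. Ramp2 went from 0.46 to -0.15 without WT-7 and WT-6. Of the lymphatic members, Lyve1 had r = 0.75 (0.57 without the 2 mice), Flt4 0.65 and Pdpn 0.62, and Prox1 was at 0.27. A cage held 3 or 4 mice, too few for a correlation within it, and after the cage means were removed r was 0.94 for Cldn5, 0.87 for Esam, 0.73 for Lyve1 and -0.45 for Clec14a.

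**Figure D5:**
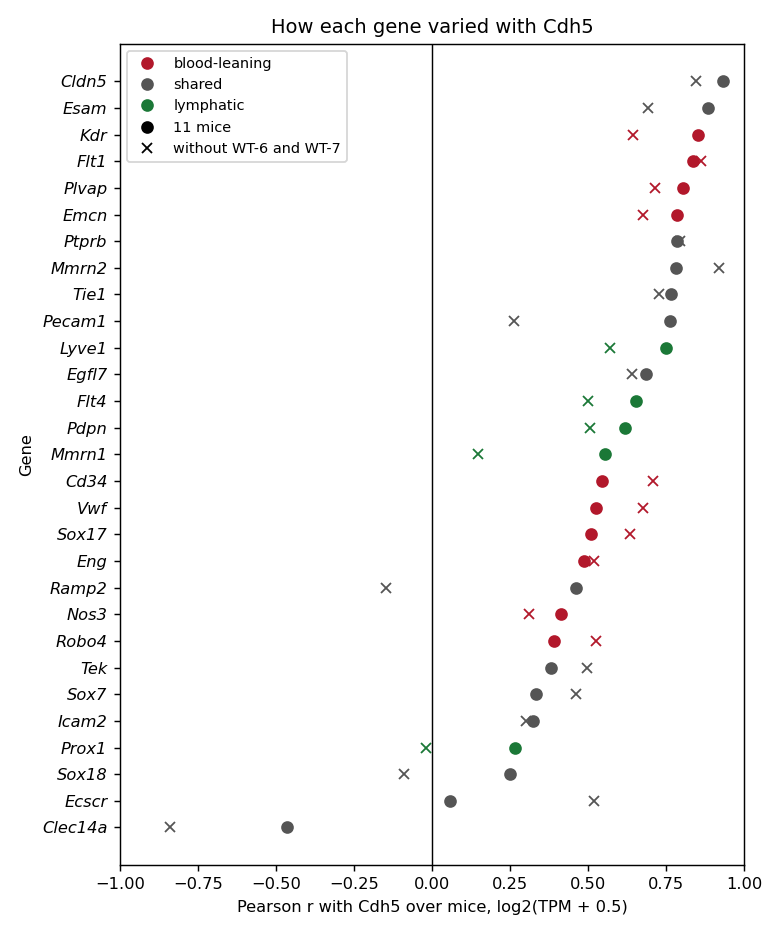
Pearson r of each member with Cdh5 over mice, on log2(TPM + 0.5) (x axis), by gene (y axis), with points for all 11 mice and crosses without WT-6 and WT-7. Points run from 0.93 for Cldn5 to -0.46 for Clec14a, and the cross of Pecam1 falls to 0.26.

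Cage was the other label that differed between the mice. None of the 11 tested members passed limma's F test for cage (background 0%), and 0 had an unadjusted p below 0.05, against 12.1% of all genes tested. Without the filter the counts were 0 and 0 of 30, with backgrounds of 0.0221% and 9.65%. The smallest limma p-values were those of Egfl7 (0.0571, adjusted p = 0.422 by limma), Plvap (0.0642, adjusted 0.434) and Ecscr (0.0689, adjusted 0.444), which were lowest in cage C. The next was that of Clec14a (0.130, adjusted 0.514 by limma), which was highest there. Clec14a averaged 3.88 ± 0.140 TPM in cage C (SD, n = 3), 3.62 ± 0.182 TPM in B and 2.92 ± 0.704 TPM in A (SD, n = 4 each).

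For the interaction of genotype and cage, 0 of 11 members passed limma's F test (background 0.0186%) and 0 had an unadjusted p below 0.05 (background 3.97%). The smallest unadjusted values were 0.338 for Ecscr, 0.351 for Plvap and 0.408 for Egfl7, each with an adjusted limma p of 0.9999. Without the filter, Ramp2 was at an unadjusted limma p of 0.0466, where 5.26% of all genes were below 0.05. This test used a single KO mouse in cage C.

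Companion lists of vessel genes were read in the same fit, and 0 of their tested genes passed limma's test. Over all genes tested, 46.8% had a higher estimate in KO and the median log2 difference was -0.01. Whether the genes of a list varied together was not tested, so counts within a list are not read as separate results. Among 17 tested angiogenic ligands, coreceptors and Notch genes, 9 had higher and 8 lower estimates in KO. Hif1a, the oxygen-regulated factor upstream of Vegfa, was at 18.1 ± 4.45 TPM in KO and 23.8 ± 3.12 TPM in WT, a log2 difference of -0.41 ± 0.15 (SE; limma unadjusted p = 0.0215, adjusted p = 0.9999), and Ephb4, a venous receptor, was at -0.53 ± 0.43. Of 8 tested transcription factors 3 had higher and 5 lower estimates, with Klf2 at -0.32 ± 0.41 and Klf4 at 0.08 ± 0.11. Of 21 adhesion and transport genes 11 were higher and 10 lower, with Ackr1 at -0.61 ± 0.36 and Tfpi at 0.45 ± 0.32. In WT mice Klf4 averaged 178 TPM, Hif1a 23.8 TPM and Ephb4 13.1 TPM, against 3.64 TPM for Plvap, the most abundant member. Which cells made the transcripts of the companion lists was not tested. All 10 tested further genes linked to lymphatic endothelium had higher estimates (median log2 difference 0.15), led by Ccl21a (0.88 ± 0.57) and Gja1 (0.18 ± 0.12). Ccl21a, the chemokine that draws CCR7-bearing cells into lymphatics, was at 55.3 ± 39.7 TPM in KO and 29.1 ± 16.8 TPM in WT. Its ranges were 22.6 to 122 TPM in KO and 7.18 to 50.3 TPM in WT. KO-1 had the highest sum of this list (161 TPM) and of the leukocyte genes (271 TPM).

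Around the vessel, 3 of 6 tested mural cell genes had higher estimates in KO, with Kcnj8 at -0.52 ± 0.49 and Pdgfrb at -0.44 ± 0.43. Of 10 tested basement membrane genes 9 had higher estimates, with a median of 0.17. Col4a1, a collagen IV chain of vascular and other basement membranes, was at 7.57 ± 1.58 TPM in KO and 5.05 ± 2.22 TPM in WT. Its log2 difference was 0.54 ± 0.14 (SE; limma unadjusted p = 0.00248, adjusted p = 0.9999). The genotypes overlapped, from 5.52 to 9.27 TPM in KO and from 3.46 to 8.76 TPM in WT. For cage, the unadjusted p of Col4a1 was 0.00116 by limma's F test (adjusted p = 0.263). Col4a2, the other collagen IV chain of the list, was at 0.09 ± 0.21, and Lamb2 was at 0.23 ± 0.15.

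Markers of other cell types were read beside Emcn and the junction genes, and none of their tested genes passed. All 4 tested red cell genes had higher estimates in KO, each at an unadjusted limma p below 0.05, against 1.06% of all genes tested. The 4 mark the same cells, so they are not separate results. Hba-a1 was at 0.81 ± 0.25 and Hba-a2 at 1.06 ± 0.37. The sum of the 5 listed genes ran from 15.9 TPM (WT-6) to 57.3 TPM in WT and from 30.6 to 128 TPM (KO-8) in KO. The part of blood content in the endothelial differences was not tested. Of the platelet genes, which share Pecam1, Esam, Vwf and Mmrn1 with endothelium, Treml1 and Gp1bb were listed at 0 in every mouse, only Pf4 was tested (-0.33 ± 0.41), and the 7 summed to 2.33 to 7.87 TPM in WT and 1.58 to 8.91 TPM in KO. Fibroblast genes had 9 higher and 1 lower estimates (Col1a1 0.28 ± 0.18, Col6a3 0.24 ± 0.22), with sums of 107 to 216 TPM in WT and 110 to 194 TPM in KO. Smooth muscle genes had 8 and 0 (Mylk 0.17 ± 0.18, Lmod1 0.16 ± 0.19), with 3272 to 6092 and 3157 to 5459 TPM. Macrophage genes, whose cells can carry Lyve1, had 2 and 5 (Mrc1 -0.27 ± 0.18, C1qb -0.31 ± 0.25), with 44.6 to 175.0 and 58.7 to 171 TPM.

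Epithelial genes had 5 higher and 5 lower estimates (Krt20 -0.09 ± 0.14, Krt8 -0.08 ± 0.15), with sums of 16750 to 25003 TPM in WT and 17815 to 24017 TPM in KO. Leukocyte genes had 1 and 4 (Cd79a -1.13 ± 0.93, Laptm5 -0.42 ± 0.62), with 22.6 to 168 and 29.6 to 271 TPM. Glial and neuronal genes had 2 and 2 (S100b 0.20 ± 0.21, Gfap -0.25 ± 0.29), with 14.9 to 29.9 and 16.8 to 31.4 TPM. Adipocyte genes had 1 and 2 (Cidec -0.69 ± 0.40, Fabp4 0.06 ± 0.44), with 5.63 to 169.7 and 14.8 to 24.6 TPM, the high value being WT-11. Of the mesothelial genes only Krt19, which epithelium also makes, was tested (-0.07 ± 0.17), with sums of 1124 to 1683 and 945 to 1757 TPM.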

How the data were processed

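Per the labels' protocols, polyadenylated RNA of full-thickness distal colon from 11 mice was made into stranded mRNA libraries and sequenced from a single end over 75 nt. The submitters' processing notes name CASAVA, kallisto, sleuth and the mm10 build, and no versions. The authors deposited TPM per mouse for principal transcripts only, with their own genotype comparison, per the file headers. That comparison, as deposited, gives a p-value and q-value, a log2 ratio, a likelihood-ratio score and the mean natural log count. Of 29213 rows, 405 repeats were dropped, leaving 28808 transcripts of 22243 genes, whose TPM were summed per gene. A gene's other transcripts are not counted, and whether the pseudoalignment used strand is not given. The latter bears on members overlapped by a gene on the other strand. These are Cdh5, Plvap, Egfl7, Ecscr and Cd34 among the tested members, and Eng, Nos3, Prox1 and Sox17 below the filter. TPM keeps no depth, so counting errors are given only from the authors' deposited mean count of a transcript.

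Levels were tested as log2(TPM + 0.5), a scale that understates changes of low genes, with limma 3.58.1 in R 4.3.3: mean-variance trend, genotype and cage as terms, genes reaching 1 TPM in 5 or more mice, Benjamini-Hochberg adjustment at 0.05 over all tested genes. A count model, planned in case the table held counts, was not used. Correlations used 100000 permutations. The fit was tested on simulated data. Alternatives changed the pseudocount, filter, scaling, trend and cage term, and left out mice with the tested genes unchanged. Coordinates are from GENCODE M21 (GRCm38). The members and lists were chosen with earlier results of these data known. Every mouse's values were read for the 5 lymphatic members, the 6 other members with the smallest genotype p, the 4 with the smallest cage p, the 3 with the smallest interaction p and the 2 most abundant. From each companion list the 2 tested genes with the smallest genotype p were named, and Col4a2 was added beside Col4a1. Ranges are given for other members. Figf, Myh11 and Msln, which are in companion lists, had no row and were not used here. Des is in both the mural and smooth muscle lists and Fabp4 in both the adhesion and adipocyte lists.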

Additional observations from a re-analysis of the deposited data

Results flagged for a closer look

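In 8 of 59 groups of values, a mouse stood apart from the others of its genotype by a gap that was large for the group's range. Chance flags about 1 in 20 groups only where values are normally distributed, which TPM with several mice at 0 are not. The number of flags is therefore not read against that share. Among KO mice, KO-8 accounted for 4 of the 8: it was the highest for Tek (0.703 TPM, with the others at 0), Eng (0.983 TPM, with 0.00465 TPM next) and Robo4 (0.0534 TPM, with the others at 0), and the lowest for Clec14a (2.09 TPM, with 3.41 TPM next). KO-4 was the lowest KO mouse for Ramp2, at 0 TPM, with 0.396 TPM next. Among WT mice, WT-7 was the lowest for Pecam1, at 0 TPM, with 0.636 TPM next. WT-11 was the highest for Sox18 (0.944 TPM, with 0.587 TPM next) and WT-5 for Mmrn2 (1.21 TPM, with 0.553 TPM next). Apart from Pecam1 and Clec14a, these genes were below the filter on low values.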

How the results depend on the processing

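No member passed limma's test under any alternative run (20 for genotype, 19 each for cage and the interaction). Over all genes, 1 to 5 passed for genotype, 0 to 4 for cage and 0 to 49 for the interaction, the last number without the filter. Emcn kept a higher estimate in KO in all 19 of its alternatives, from 0.59 (pseudocount 1 TPM) to 0.89 (pseudocount 0.1 TPM), with a smallest adjusted p of 0.549. Cd34 ranged from 0.063 to 0.36 over the mice left out. The estimates of 5 members near 0 or leaning on a few mice turned sign. Egfl7 was at 0.026 and Ecscr at 0.20 without the cage term. Without WT-6 and WT-7 together, Cldn5 was at -0.12, Lyve1 at -0.21 and Ecscr at 0.27, while Egfl7 kept its sign at -0.57. Leaving out a mouse at a time, Egfl7 ranged from -0.37 to 0.042, Lyve1 from -0.046 to 0.38, Ecscr from -0.49 to 0.49 and Clec14a from -0.13 to 0.068. Blood minus lymphatic, KO minus WT, ranged from -0.05 (without WT-2) to 0.19 (log2 ratio of summed TPM). The cause of these shifts was not tested. With 2 TPM required in all 11 mice, 1 member (Clec14a) remained to be tested. No paired analysis was possible because the groups compared share fewer than 2 replicate numbers: each mouse number belongs to a single mouse. Depth limits the low members: counting error alone was 21.6% for Emcn, from the authors' deposited mean count.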

Other observations

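Outside the lists, the 5 tested genes whose log2 levels ran most closely with the mean of the tested blood-leaning and shared members over the 11 mice were Tmem119 (Pearson r = 0.95), Efemp1 (0.93), Ms4a4d (0.92), Crip2 (0.91) and Rsu1 (0.90). They were picked as the highest of all tested genes, so the values are a description. Their mean levels in WT and KO mice were 1.98 ± 0.986 and 2.58 ± 1.00 TPM for Tmem119, 1.73 ± 0.990 and 2.10 ± 0.872 TPM for Efemp1, and 1.56 ± 0.619 and 2.23 ± 0.771 TPM for Ms4a4d (SD, n = 6 and 5). Crip2 was at 10.5 ± 3.37 and 12.7 ± 2.74 TPM and Rsu1 at 28.1 ± 5.03 and 31.7 ± 3.88 TPM. None of the 5 passed limma's test for genotype (adjusted p = 0.9999 for each).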
